A study of Mus musculus with 12 samples.

Results

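RNA-Seq counts from mouse splenic B cells were read here for 8 genes that mark marginal zone and follicular B cells or carry the Notch signal between them. They were picked by symbol, through the mouse Entrez identifier of each, and are 8 of the 27179 genes in the count table: Cr2, Fcer2a, Cd1d1, Notch2, Dtx1, Hes1, Rbpj and Cd55. All 8 passed the filter on low counts. Cells came from the spleens of male C57BL/6 mice 6 to 12 weeks old, with 2 libraries described as biological duplicates at each of 6 stages. Naive B cells were sorted without culture as B220+IgM+ cells with high IgD and no TCRβ and received no treatment. The other stages were started from B cells isolated by negative selection and cultured with 25 µg/ml lipopolysaccharide (LPS). Undivided CD69+ cells, told by the division dye CTV, were sorted at 3, 10 and 33 h. On day 4, in cultures set up at a lower cell density, cells were sorted into expanded B cells, which kept CD22 and lacked CD138, and plasmablasts, which had lost CD22 and carried CD138. Naive cells therefore differ from the 3 h cells in LPS, in culture and in the way they were isolated and sorted, and these cannot be told apart. Likewise, time, culture density, division and the markers used for sorting cannot be told apart between 33 h and day 4.

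Follicular B cells recirculate through the follicles and carry CD23, the low-affinity IgE receptor encoded by Fcer2a, whereas marginal zone B cells stay beside the marginal sinus, carry much CR2 (CD21) and CD1d and little IgD, and turn quickly into plasmablasts when they meet LPS. The marginal zone fate needs NOTCH2, which is cut when it meets Delta-like 1 on stroma, so that its intracellular part enters the nucleus, joins the DNA-binding protein RBPJ and switches on targets such as Hes1 and Dtx1. The naive gate asks for high IgD, which marginal zone cells carry little of, whereas the cultured cells were grown from all B cells that negative selection left. In bulk RNA a smaller share of cells of a type and less RNA per cell cannot be told apart.

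The stretches before the start sites are shown for the 2 genes that hold the core letters of the RBPJ motif, Cr2 and Rbpj, and for Fcer2a and Notch2, whose levels followed each other most closely. They are RefSeq sequences on GRCm38.p6, read 5′ to 3′ along the gene's strand, without the bases of GENCODE exons of the gene, and capitals mark TGGGAA. The Cr2 stretch also stops at the edge of the gene's annotated span, while the Rbpj stretch lies inside the span of its gene, outside its exons. The Cr2 stretch is chr1:195176881-195176969 on the minus strand, Rbpj is chr5:53590096-53590213 on the plus strand, Fcer2a is chr8:3694176-3694424 on the minus strand and Notch2 is chr3:98013288-98013526 on the plus strand.
Cr2: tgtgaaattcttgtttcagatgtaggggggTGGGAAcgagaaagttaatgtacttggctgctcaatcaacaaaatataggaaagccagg
Rbpj: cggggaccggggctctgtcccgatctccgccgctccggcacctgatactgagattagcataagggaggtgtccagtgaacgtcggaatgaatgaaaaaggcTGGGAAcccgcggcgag
Fcer2a: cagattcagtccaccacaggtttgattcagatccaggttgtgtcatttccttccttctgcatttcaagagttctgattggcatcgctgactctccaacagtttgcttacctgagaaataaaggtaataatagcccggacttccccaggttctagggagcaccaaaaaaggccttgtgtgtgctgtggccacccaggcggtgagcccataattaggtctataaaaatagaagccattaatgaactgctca
Notch2: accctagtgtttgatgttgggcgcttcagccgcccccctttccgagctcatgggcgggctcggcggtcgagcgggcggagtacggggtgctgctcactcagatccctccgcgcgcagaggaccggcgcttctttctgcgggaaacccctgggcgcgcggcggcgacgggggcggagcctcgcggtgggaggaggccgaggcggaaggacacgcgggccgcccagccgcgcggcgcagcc
Of the 8 genes, 6 have a promoter in the RefSeq table used, and Hes1 and Cd1d1 are named only. TGGGAA, searched on both strands of the 250 bases before the start, was found in 2 of the 6. Fcer2a has 3 starts listed and Rbpj 2, and only the start farthest upstream was searched. Cr2 held it once, 220 to 215 bases before the start, and Rbpj held it at 149 to 144 bases on the plus strand and at 65 to 60 bases on the minus strand. The latter lies outside the stretch shown. Fcer2a, Notch2, Dtx1 and Cd55 held none in the window searched. The Cd55 window lies wholly, and the Dtx1 window partly, inside the annotated span of its gene. The same letters occur in 21.6% of the 32851 promoter windows in the table, so their presence is a description of the letters and not of a site.

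Libraries held 23026619 to 60585587 counts. Levels are given as RPKM, in which counts are scaled for exon length and for library size, the latter with TMM factors. A gene was called differentially expressed (DE) when its change exceeded 1.5-fold by edgeR's glmTreat at an adjusted p of 0.05, and edgeR's quasi-likelihood F-test was used for a change of any size, both adjusted with the Benjamini-Hochberg method over the 12750 genes tested. With 2 libraries against 2, an exact permutation test cannot go below a two-sided p of 0.333, so the p-values rest on the spread that edgeR shares across genes and stages. B cell markers, summed over 6 genes, stood at 6940 and 6780 RPKM in naive cells and at 1950 and 1940 RPKM in plasmablasts, where Cd22 was down to 0.432 and 0.368 RPKM. Plasmablast markers, summed over 5 genes, rose from 148 and 141 RPKM in naive cells to 10800 and 10700 RPKM in plasmablasts. The naive libraries also held myeloid RNA, with 6 markers summing to 404 and 162 RPKM, and erythroid RNA, with 4 markers summing to 235 and 172 RPKM. In the other 10 libraries the myeloid sum was 0.0914 to 4.37 RPKM, nearly all of it Adgre1, and the erythroid sum was 0.0997 to 2.00 RPKM. The 6 T cell markers summed to at most 2.08 RPKM in any library. Of the 6 follicular dendritic and stromal markers, Cxcl13, Col1a1 and Col3a1 were at or near 0 in every library, and Mfge8 made up most of a sum that reached 18.7 RPKM in plasmablasts.

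Fcer2a and Cr2, the surface receptors that separate follicular from marginal zone B cells, both lost most of their RNA, but at different times. Fcer2a held its naive level at 3 h, when Cr2 was at 49.8% of its own, and at the last step they moved in opposite directions. Fcer2a encodes CD23, Cr2 encodes the complement receptors CD21 and CD35 as splice forms that the counts do not separate.

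Fcer2a (chromosome 8, 3680280 to 3694174, minus strand) measured 761 and 819 RPKM in the naive libraries and 774 and 873 RPKM at 3 h. At 10 h it measured 187 and 209 RPKM, at 33 h 125 and 79.3 RPKM, and then 23.4 and 17.8 RPKM in expanded cells and 2.23 and 2.06 RPKM in plasmablasts. The naive and 3 h libraries overlapped, and every later stage lay wholly below the one before. In naive cells Fcer2a stood above 99.4% of the genes tested, and in plasmablasts above 30.3%. From naive to 3 h its log2 fold change was 0.06 ± 0.18 (SE), with an adjusted p of 1 by glmTreat. It fell by 2.06 ± 0.19 on the log2 scale from 3 h to 10 h (adjusted p = 1.7e-05), by 2.31 ± 0.19 from 33 h to expanded cells (2.5e-05) and by 3.27 ± 0.23 from expanded cells to plasmablasts (8.9e-07). Between 10 h and 33 h the log2 fold change was -0.95 ± 0.18, short of the glmTreat threshold at an adjusted p of 0.058. With each library left out in turn it ranged from -1.32, without replicate 1 of the 33 h cells, the higher of the pair, to -0.66. Over the whole course the level in plasmablasts was 0.272% of that in naive cells.

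Cr2 (chromosome 1, 195136811 to 195176880, minus strand) measured 122 and 129 RPKM in naive cells, 58.6 and 66.2 RPKM at 3 h, 15.1 and 15.8 RPKM at 10 h and 21.9 and 26.4 RPKM at 33 h. Expanded cells had 4.09 and 3.93 RPKM and plasmablasts 8.62 and 9.92 RPKM. No neighbouring stages overlapped, and the course turned upward at 33 h and again in plasmablasts. Cr2 fell by 1.01 ± 0.11 on the log2 scale from naive to 3 h (adjusted p = 0.00053, glmTreat), by 2.01 ± 0.11 from 3 h to 10 h (1.2e-07) and by 2.59 ± 0.11 from 33 h to expanded cells (4.1e-08). The change from 10 h to 33 h was 0.64 ± 0.11, which passed the F-test (adjusted p = 0.00033) but not the 1.5-fold threshold (0.47). At that step 23.2% of all tested genes passed the F-test upward and 22.2% downward. From expanded cells to plasmablasts Cr2 rose by 1.21 ± 0.11 (8e-05), to 7.39% of its naive level. Of its exon bases 2526 lie inside the span of a long non-coding gene, Gm32313, which has no row of its own among the counts, and reads from the latter would add to Cr2 if the counting ignored strand.

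The ratio of Cr2 to Fcer2a within a library does not depend on how libraries are scaled. Naive cells gave 0.160 and 0.157, the 3 h cells 0.0757 and 0.0758, and the 10 h cells 0.0808 and 0.0757. It was 0.175 and 0.333 at 33 h, 0.175 and 0.221 in expanded cells, and 3.87 and 4.80 in plasmablasts. Plasmablasts were the stage in which Cr2 RNA exceeded Fcer2a RNA per length, while in the other 10 libraries Fcer2a was the higher.

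**Figure D1:**
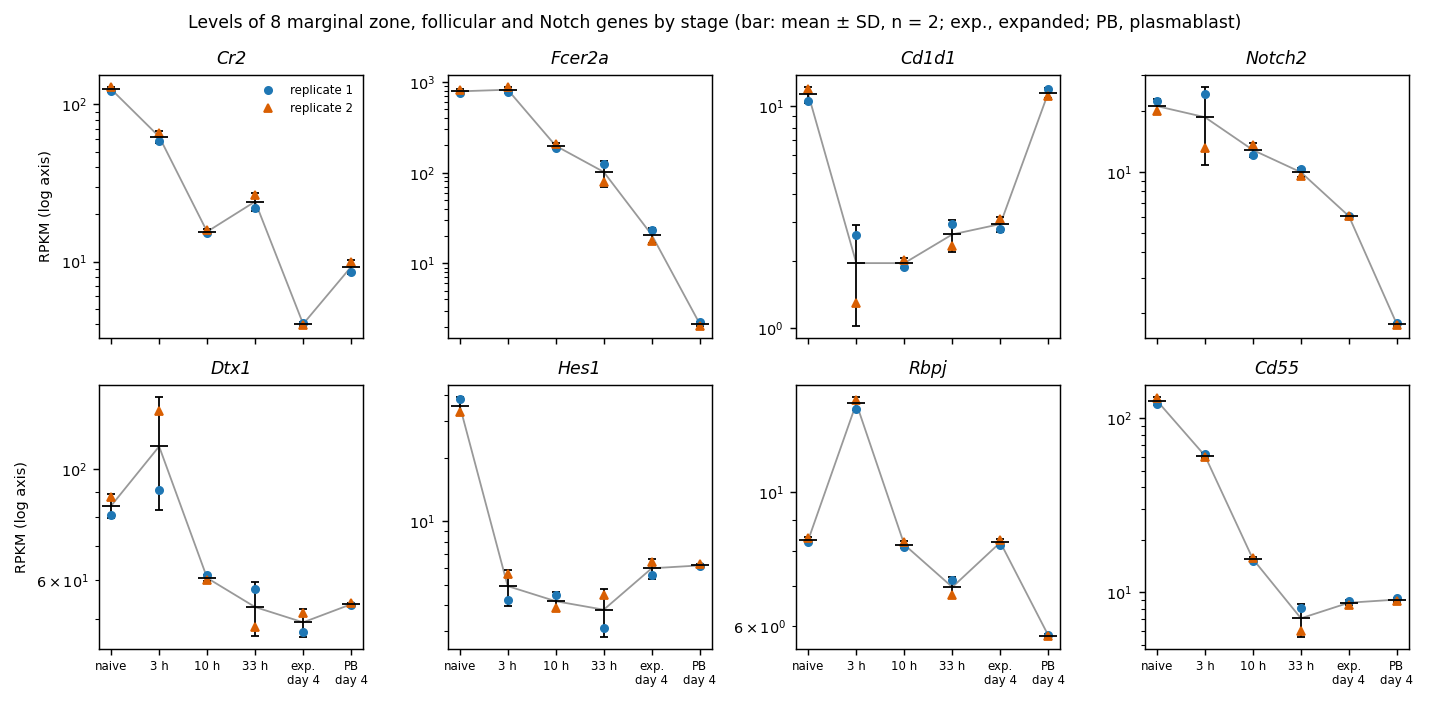
RPKM on a log axis for each of the 8 genes at the 6 stages, with a point for each replicate and a bar for the mean ± SD (n = 2). Fcer2a ran from 790 RPKM in naive cells to 2.15 RPKM in plasmablasts, Cd1d1 was high at both ends of the course, and Rbpj stayed between 5.79 and 14.0 RPKM.

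Cd55 and Cd1d1, the other surface genes, parted company after 3 h. Cd55 encodes decay-accelerating factor, which breaks up complement convertases on the cell's own surface, and Cd1d1 encodes the molecule that presents lipids to NKT cells.

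Cd55 (chromosome 1, 130429798 to 130465009, minus strand) measured 121 and 130 RPKM in naive cells, 62.2 and 59.5 RPKM at 3 h, 15.2 and 15.7 RPKM at 10 h, 8.15 and 6.01 RPKM at 33 h, 8.91 and 8.48 RPKM in expanded cells and 9.23 and 8.90 RPKM in plasmablasts. The first 4 stages did not overlap, and expanded cells and plasmablasts did. It fell by 1.05 ± 0.11 (SE) on the log2 scale from naive to 3 h (adjusted p = 0.00049, glmTreat), by 1.98 ± 0.12 from 3 h to 10 h (3.1e-07) and by 1.12 ± 0.12 from 10 h to 33 h (9e-04). Its later changes, 0.29 ± 0.12 and 0.06 ± 0.12, did not pass either test. Up to 10 h Cd55 and Cr2, 2 genes of complement on the same chromosome, stayed at nearly the same RPKM, with a ratio of Cr2 to Cd55 of 0.942 to 1.11 in the 6 libraries. The ratio was then 2.68 and 4.39 at 33 h, 0.459 and 0.463 in expanded cells and 0.933 and 1.11 in plasmablasts. Of the 81-base windows in Cd55 transcripts 5.63% also occur in another gene, mostly Cd55b, so a small part of its reads may be shared.

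Cd1d1 (chromosome 3, 86995834 to 87012358, minus strand) measured 10.6 and 11.9 RPKM in naive cells, 2.63 and 1.30 RPKM at 3 h, 1.89 and 2.03 RPKM at 10 h, 2.94 and 2.33 RPKM at 33 h and 2.78 and 3.09 RPKM in expanded cells. Plasmablasts were back at 11.9 and 11.1 RPKM, and overlapped the naive libraries. The 4 stages between lay at 1.30 to 3.09 RPKM. Cd1d1 fell by 2.58 ± 0.24 on the log2 scale from naive to 3 h (adjusted p = 3.1e-06, glmTreat) and rose by 1.97 ± 0.22 from expanded cells to plasmablasts (6.9e-05). Plasmablasts against naive cells gave 0.03 ± 0.21, an adjusted p of 1 by glmTreat and of 0.90 by the F-test. Its near-copy Cd1d2 shares 13.3% of the 81-base windows of Cd1d1 and was listed at a mean of 0.608 RPKM in naive cells and 0.536 RPKM in plasmablasts.

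**Figure D2:**
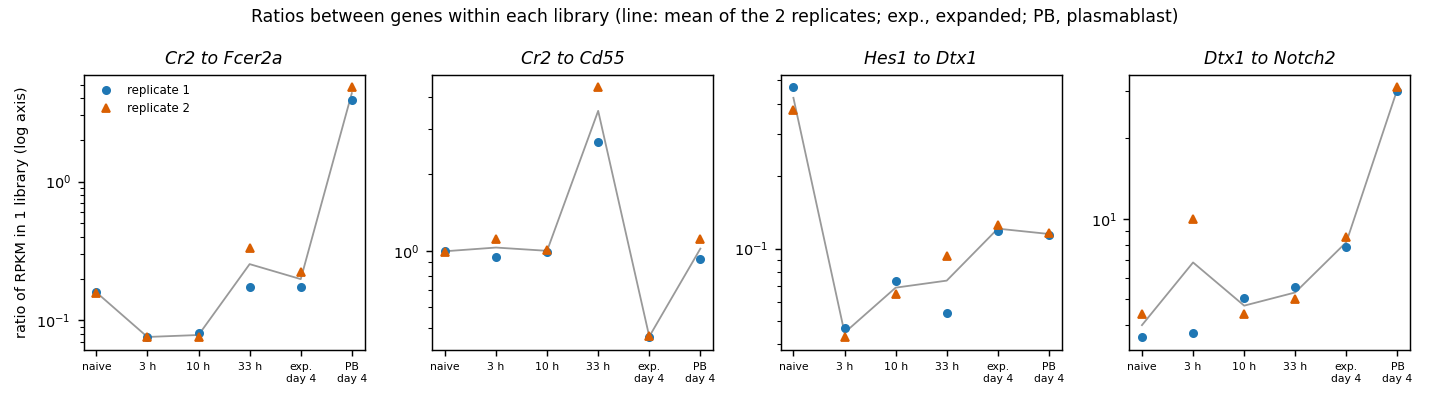
Ratio of the RPKM of 2 genes within each library, on a log axis, for the 2 replicates of each stage. Cr2 to Fcer2a was 4.34 on average in plasmablasts against 0.159 in naive cells, Cr2 to Cd55 was near 1 up to 10 h, Hes1 to Dtx1 dropped at 3 h, and Dtx1 to Notch2 was 30.5 in plasmablasts.

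Along the Notch pathway the receptor gene was at 47% of its naive level at 33 h and at 8.32% in plasmablasts, and the targets Hes1 and Dtx1 took different courses. Hes1 lost most of its RNA within 3 h, while Dtx1 never dropped below 47.1 RPKM. Dtx1 and Rbpj had the smallest spans of the 8 genes, 2.25 and 2.42 times between the highest and the lowest stage mean.

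Notch2 (chromosome 3, 98013538 to 98150367, plus strand), the receptor, measured 22.4 and 19.9 RPKM in naive cells, 24.1 and 13.1 RPKM at 3 h, 12.1 and 13.5 RPKM at 10 h and 10.3 and 9.57 RPKM at 33 h. It measured 6.02 and 6.04 RPKM in expanded cells and 1.78 and 1.74 RPKM in plasmablasts. The replicates at 3 h stood far apart, so that stage overlapped both of its neighbours, and from 10 h on each stage lay below the one before. Of the consecutive steps glmTreat called only the last, at which Notch2 fell by 1.78 ± 0.22 (SE) on the log2 scale (adjusted p = 0.00034). From 3 h to 10 h the change was -0.54 ± 0.21 (0.61). With each library left out in turn it ranged from -0.90, without replicate 2 of the 3 h cells, to -0.03. By the F-test the steps from 3 h to 10 h and from 33 h to expanded cells passed as well, with adjusted p-values of 0.040 and 0.017. From naive cells to plasmablasts Notch2 fell by 3.59 ± 0.23 (1.4e-07), to 8.32% of its naive level. Of its 81-base windows 2.90% also occur in another gene, Gm42820.

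Rbpj (chromosome 5, 53555779 to 53657445, plus strand), which encodes the factor that carries the Notch signal to DNA, measured 8.27 and 8.38 RPKM in naive cells and 13.7 and 14.2 RPKM at 3 h. It measured 8.11 and 8.25 RPKM at 10 h, 7.15 and 6.76 RPKM at 33 h, 8.16 and 8.33 RPKM in expanded cells and 5.81 and 5.78 RPKM in plasmablasts. The 3 h cells stood above all other stages and the plasmablasts below them, and naive, 10 h and expanded cells had nearly the same level. Rbpj rose by 0.75 ± 0.08 on the log2 scale to 3 h (adjusted p = 0.024, glmTreat) and fell by 0.77 ± 0.08 to 10 h (0.020). Both lie near the 1.5-fold threshold, and under 10 of 23 alternatives for the rise and 6 of 23 for the return, among them the DESeq2 Wald test for the rise, they were no longer called, with adjusted p-values up to 0.63 and 1. Both passed the F-test, with adjusted p-values of 3.7e-06 and 4.7e-06. The drop to plasmablasts, -0.51 ± 0.09, passed the F-test (0.00022) and not the glmTreat threshold (0.99). Copies such as the pseudogene Rbpj-ps3 share 8.76% of its 81-base windows.

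The balance of receptor to factor shifted over the course. The ratio of Notch2 to Rbpj in naive libraries was 2.71 and 2.38, against 1.44 and 1.41 at 33 h, 0.737 and 0.725 in expanded cells and 0.307 and 0.301 in plasmablasts.

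Hes1 (chromosome 16, 30065357 to 30067796, plus strand), a transcriptional repressor and direct Notch target, measured 38 and 33.1 RPKM in naive cells and 4.23 and 5.61 RPKM at 3 h. It measured 4.47 and 3.86 RPKM at 10 h, 3.11 and 4.48 RPKM at 33 h, 5.54 and 6.43 RPKM in expanded cells and 6.10 and 6.25 RPKM in plasmablasts. Naive cells stood apart from the other 5 stages, which lay between 3.11 and 6.43 RPKM. Hes1 fell by 2.84 ± 0.19 on the log2 scale from naive to 3 h (adjusted p = 9.2e-08, glmTreat), to 13.8% of the naive level, and of the consecutive steps that followed none was called. The step from 33 h to expanded cells, 0.67 ± 0.19, passed the F-test (0.012) and not glmTreat (0.60).

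The fall of Hes1 and that of Cd1d1 came at the step at which the myeloid and erythroid RNA of the naive libraries went. S100a8, a neutrophil gene, measured 122 and 48.0 RPKM in naive cells and was at 0 in the other 10 libraries, and Lyz2 measured 141 and 60.2 RPKM in naive cells. Naive replicate 1 held more of both than replicate 2, while Hes1 was 38 against 33.1 RPKM and Cd1d1 was 10.6 against 11.9 RPKM. Without naive replicate 1 the log2 fold change to 3 h was -2.73 for Hes1 and -2.66 for Cd1d1, and without naive replicate 2 it was -2.93 and -2.48. The part of the myeloid and erythroid RNA in these results was not tested.

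**Figure D3:**
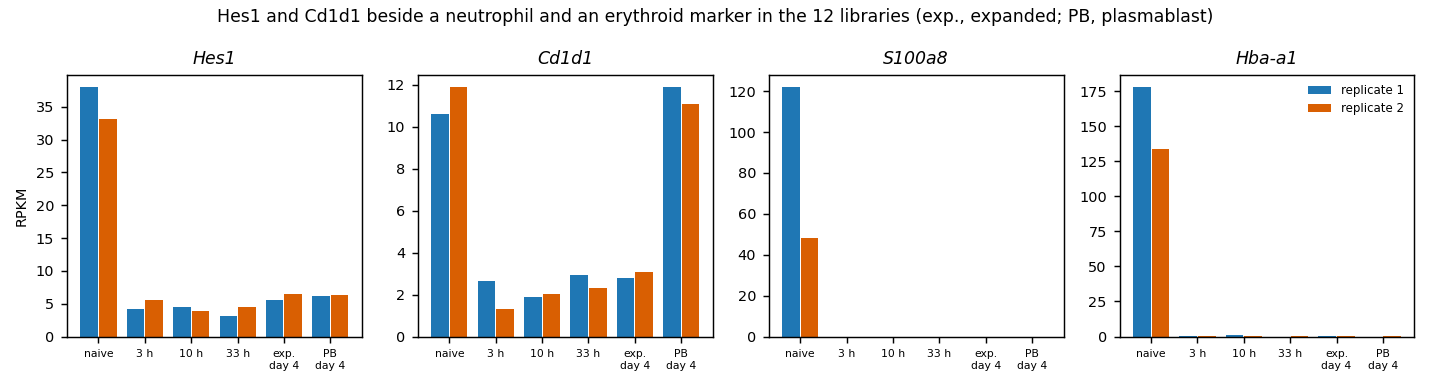
RPKM of Hes1, Cd1d1, the neutrophil gene S100a8 and the erythroid gene Hba-a1 in the 12 libraries, as a bar for each replicate, on axes that start at 0. S100a8 and Hba-a1 stood at 122 and 178 RPKM in naive replicate 1 and at 48.0 and 134 RPKM in naive replicate 2, and near 0 elsewhere, whereas Cd1d1 was also high in plasmablasts.

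Dtx1 (chromosome 5, 120680203 to 120711867, minus strand), which encodes the ubiquitin ligase Deltex 1 and is a Notch target in B cells, measured 81.0 and 87.7 RPKM in naive cells, 90.8 and 131 RPKM at 3 h, 61.2 and 59.8 RPKM at 10 h and 57.5 and 48.2 RPKM at 33 h. It measured 47.1 and 51.5 RPKM in expanded cells and 53.4 and 53.8 RPKM in plasmablasts. The naive and 3 h libraries lay above all later ones, and the 33 h libraries overlapped both day 4 stages. Dtx1 fell by 0.87 ± 0.14 on the log2 scale from 3 h to 10 h (adjusted p = 0.028, glmTreat), and without replicate 2 of the 3 h cells the change was -0.57 and not called (0.54). It was not called in 6 of 23 alternatives. From naive cells to plasmablasts the change was -0.65 ± 0.14, past the F-test (0.00098) and not past glmTreat (0.23). Since Dtx1 kept 63.5% of its naive level and Notch2 did not, the ratio of Dtx1 to Notch2 went from 3.62 and 4.40 in naive cells to 30.0 and 31.0 in plasmablasts. The ratio of Hes1 to Dtx1, the targets, was 0.469 and 0.377 in naive cells and 0.0466 and 0.0429 at 3 h.

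Counted over the 8 genes, calls fell unevenly over the course. From naive to 3 h, 1 was called up and 4 down by glmTreat, where 21.0% and 24.3% of all tested genes were called. From 3 h to 10 h, 0 were up and 5 down, against 13.4% of all genes down and 17.4% up. From 10 h to 33 h, 1 was down (Cd55) and 0 up, against 4.45% and 10.1% of all genes. From 33 h to expanded cells 2 were down (Cr2 and Fcer2a) and 0 up, against 3.66% and 6.94%. From expanded cells to plasmablasts, 2 were up (Cr2 and Cd1d1) and 2 down (Fcer2a and Notch2), against 13.9% and 12.2%. From naive cells to plasmablasts, 5 were down and 0 up, against 23.4% and 26.6%, with a median log2 fold change of -3.05 over the 8 genes and 0.02 over all genes tested. By the F-test, which takes changes of any size, 2 of the 8 were up and 4 down at 3 h (34.7% and 36.3% of all genes), 0 and 6 at 10 h (32.1% and 30.2%), 1 and 3 at 33 h (23.2% and 22.2%), 2 and 3 in expanded cells (18.5% and 21.2%), 2 and 3 in plasmablasts against expanded cells (27.2% and 29.7%) and 0 and 7 in plasmablasts against naive cells (38.2% and 35.9%). By glmTreat, the share of the 8 genes called down, 50% to 3 h and 62.5% to 10 h, was thus above that of all genes at those steps. Rbpj, Dtx1 and Cd1d1 were the 3 genes not called between the ends of the course by glmTreat in the fit of all 12 libraries with TMM scaling.

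**Figure D4:**
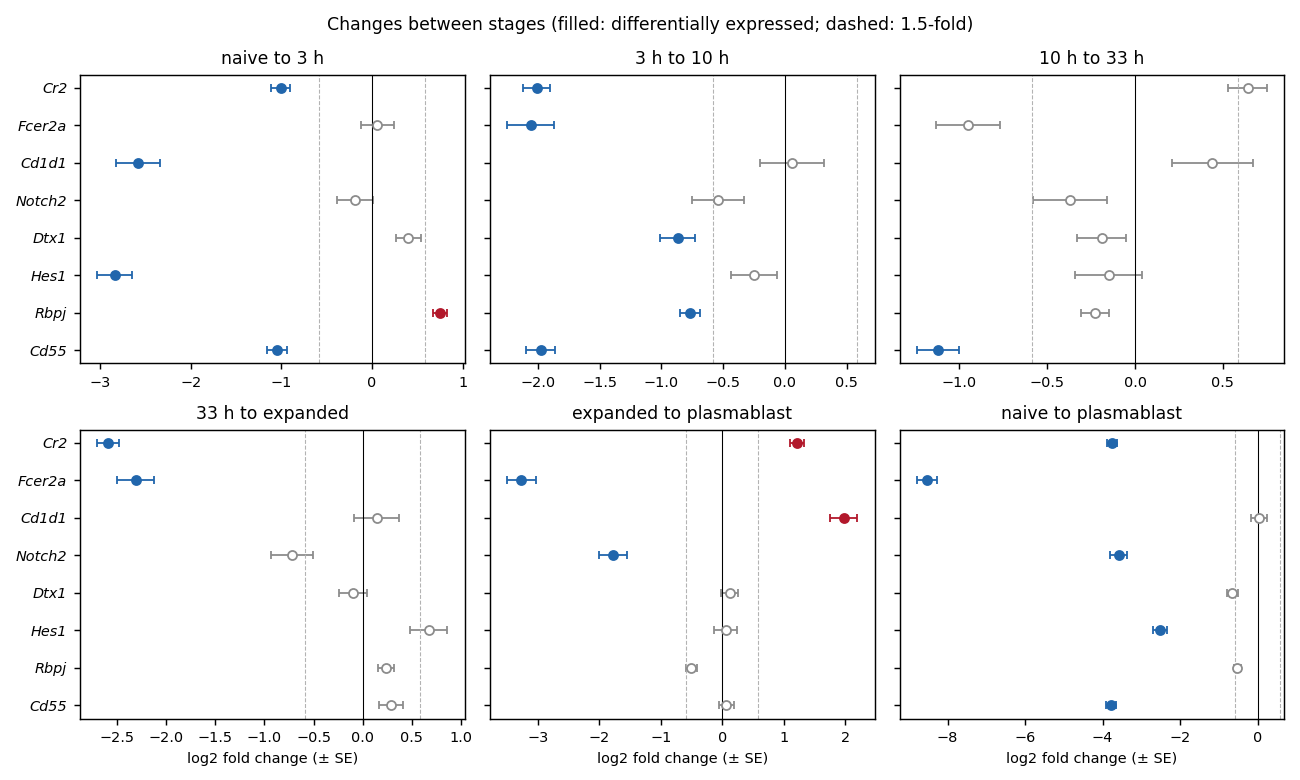
Log2 fold change ± SE of the 8 genes at the 5 consecutive steps and from naive cells to plasmablasts, filled where glmTreat called the gene and with dashed lines at 1.5-fold. Cr2, Hes1 and Cd1d1 fell at 3 h, Fcer2a only from 10 h on, and Cr2 and Cd1d1 rose into plasmablasts while Fcer2a and Notch2 fell.

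Of the genes around them, the other follicular genes were, like Fcer2a, lower in plasmablasts than in naive cells. All 5 were DE downward between these, with a median log2 fold change of -7.40, where 23.4% of all tested genes were down and 26.6% up. They include Ccr7 and Cxcr5, the chemokine receptors that guide B cells to the T zone and the follicle, Klf2, a regulator of lymphocyte trafficking, and Ighd, whose product was part of the naive gate. Like Fcer2a, Ccr7 and Cxcr5 did not fall at 3 h. Ccr7 rose from a mean of 171 RPKM to 1060 RPKM, a log2 fold change of 2.63 (adjusted p = 8.1e-08, glmTreat), and Cxcr5 from 448 to 1190 RPKM, a change of 1.41 (4.4e-07). Klf2 went from 498 to 81.1 RPKM at the same step and was called down (5e-06).

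The other marginal zone genes did not move together. Of 13, 7 were up and 4 down from naive cells to plasmablasts, with a median of 0.84, beside the same 26.6% and 23.4% of all tested genes. Mzb1, an endoplasmic reticulum chaperone of antibody-secreting cells, rose by 5.19 ± 0.17 on the log2 scale (adjusted p = 1e-10, glmTreat), and Cd36, a scavenger receptor, by 3.61 ± 0.13 (1.8e-10). Cnr2, the cannabinoid receptor CB2, fell by 4.09 ± 0.16 (3.7e-10). Gpr183, the oxysterol receptor that positions B cells, fell by 3.60 ± 0.15 between 3 h and 10 h (1e-08). Over all 18 other marginal zone and follicular genes, 5 were up and 8 down at 3 h, where 21.0% and 24.3% of all genes were, and 3 up and 10 down at 10 h, where 17.4% and 13.4% were.

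Of 48 other Notch pathway genes, 44 were tested. At 3 h 8 were up and 7 down, beside 21.0% and 24.3% of all genes, and at 10 h 5 were up and 7 down, beside 17.4% and 13.4%. The step from 10 h to 33 h had 1 up and 1 down, beside 10.1% and 4.45% of all genes. The step from 33 h to expanded cells had 1 up and 3 down, beside 6.94% and 3.66%. From expanded cells to plasmablasts 13 were up and 2 down of the 44, against 13.9% and 12.2% of all genes.

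Among receptors, Notch1 took the opposite course to Notch2. It measured 2.39 and 2.15 RPKM in naive cells, 10.4 and 11.3 RPKM in expanded cells and 15.4 and 14.4 RPKM in plasmablasts, a rise of 2.71 ± 0.19 on the log2 scale from first to last (adjusted p = 1.8e-07, glmTreat). Per length Notch1 RNA was below Notch2 RNA in naive cells and above it in plasmablasts. Notch3 was at or near 0 in all libraries and was not tested, and Notch4 had at most 0.174 RPKM. Among ligands, Dll3 went from 0 counts in both naive libraries and at most 3 counts in expanded cells to 1.90 and 2.20 RPKM in plasmablasts, with at most 135 counts in a library. Dll1, the ligand that drives the marginal zone fate from stroma, was at 0.776 and 0.667 RPKM in naive cells and fell by 3.53 ± 0.57 on the log2 scale to plasmablasts (adjusted p = 0.00021).

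Lfng, which encodes the glycosyltransferase Lunatic fringe that makes NOTCH receptors more responsive to Delta-like ligands, rose to 96.4 and 72.1 RPKM at 3 h from 33.5 and 28.4 RPKM (log2 fold change 1.44, adjusted p = 0.00092, glmTreat). It then fell by 3.11 to 10 h (1.9e-06) and ended at 0.501 and 0.309 RPKM in plasmablasts. From naive cells to plasmablasts it fell by 6.28 ± 0.33 (1.2e-08). Rfng, its relative Radical fringe, moved the other way at both early steps, as it fell by 1.62 ± 0.16 to 3 h (1.6e-05) and rose by 1.58 to 10 h (4e-05). Of the 10 proteases, 4 rose from expanded cells to plasmablasts and none fell, where 13.9% of all genes were up and 12.2% down. Among them were the γ-secretase subunits Ncstn by 1.30 ± 0.09 (5e-06) and Psenen by 1.08 ± 0.14 (0.0022).

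Among coactivators of RBPJ, Maml3 fell by 2.56 ± 0.14 from 3 h to 10 h (adjusted p = 7.6e-08, glmTreat). Kat2b, an acetyltransferase, fell by 2.42 ± 0.20 to 3 h (1.1e-06) and was at 7.05 and 6.56 RPKM in plasmablasts against 2.20 and 2.15 RPKM in naive cells. Among regulators, Mib1, the ligase that activates Notch ligands, rose by 3.00 ± 0.16 over the course (4.9e-09), while Dtx4, a relative of Dtx1, fell by 6.20 ± 0.34 from expanded cells to plasmablasts (4.9e-08), from 3.55 and 3.37 RPKM to 0.0367 and 0.0550 RPKM. Taok3, a kinase needed for the marginal zone fate, fell by 1.18 ± 0.08 to 3 h (2.7e-06) and was back at 34.0 and 33.0 RPKM at 10 h, against 40.1 and 41.7 RPKM in naive cells.

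Of the 4 other Notch target genes tested, 1 was called up and 0 down at 3 h, the step at which Hes1 fell. Of all tested genes 21.0% were called up there and 24.3% down. Heyl went from 0.0521 and 0.0599 RPKM in naive cells to 2.82 and 2.73 RPKM at 3 h, a rise of 5.62 ± 0.32 on the log2 scale (adjusted p = 1.2e-08, glmTreat), and was back at 0.161 and 0.222 RPKM by 10 h. Hes5 measured 5.27 and 3.23 RPKM in naive cells and 7.31 and 7.14 RPKM at 3 h, which was not called, and fell by 1.88 ± 0.27 over the whole course (0.00024). Heyl was also called down over the whole course (0.0065), from at most 8 counts in a naive library to at most 1 in a plasmablast library. Hey1 was called up from expanded cells to plasmablasts (0.0072). It had at most 2 counts in a naive or expanded library and at most 14 in plasmablasts. Nrarp was not called in any comparison, and Hey2 was not tested.

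**Figure D5:**
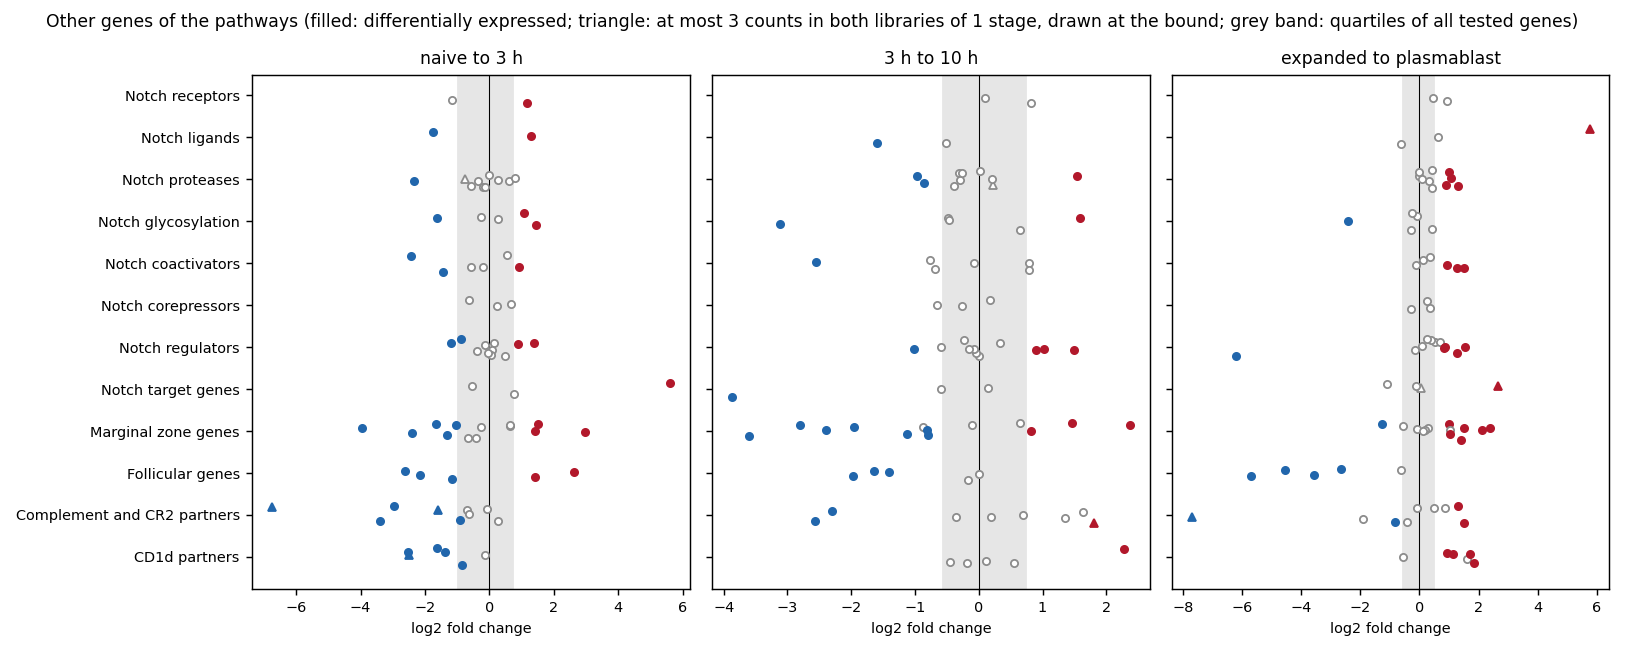
Log2 fold change of the other genes at 3 steps, by list, with a point for each gene, filled where glmTreat called it, triangles where both libraries of a stage held at most 3 counts, and a grey band for the quartiles of all tested genes. Follicular genes fell by up to 5.70 from expanded cells to plasmablasts, while most called Notch pathway genes rose at that step.

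Genes of complement and of lipid presentation around Cr2, Cd55 and Cd1d1 were also read. Of 14 complement genes and CR2 partners 9 were tested, and 5 were down and 0 up at 3 h, where 24.3% and 21.0% of all genes were. At this step the summed myeloid markers went from 404 and 162 RPKM to 0.620 and 1.69 RPKM, and the 5 include Itgam and Itgax, integrin genes that myeloid cells also express, with log2 fold changes of -3.41 and -2.96 (adjusted p = 0.00013 and 0.00034, glmTreat). Itgam was later above its naive 2.11 and 1.26 RPKM, at 4 and 2.99 RPKM at 33 h and 5.43 and 4.92 RPKM in expanded cells. In plasmablasts it was at 0 and 0.0226 RPKM, with at most 3 counts in a library. The myeloid sum in expanded cells was 4.25 and 4.37 RPKM. Itgax did not return, with 0.112 RPKM in both expanded libraries against 0.807 and 0.915 RPKM in naive cells. The part of the myeloid RNA in the changes at 3 h was not tested. C3, the source of the ligands of CR2, measured 3.63 and 1.91 RPKM in naive cells and had at most 3 counts in a 3 h library, and was higher in the naive library with more myeloid RNA. Cr1l, the complement regulator Crry, rose by 1.5 ± 0.09 on the log2 scale from expanded cells to plasmablasts (adjusted p = 5.1e-07, glmTreat), and Cd55b fell by 3.93 ± 0.28 from naive cells to plasmablasts (7.8e-08). Of the 6 CD1d partners, 5 were down at 3 h and 4 were up from expanded cells to plasmablasts with none down, the steps at which Cd1d1 fell and rose. Of all genes 24.3% were down at 3 h, the step at which the myeloid markers dropped, and 13.9% up and 12.2% down at the last step, and the part of the myeloid RNA in the former was not tested. From expanded cells to plasmablasts B2m, the light chain of CD1d, rose by 1.72 ± 0.10 (2.5e-07). Gm2a, a lysosomal lipid transfer protein, fell by 2.53 ± 0.10 to 3 h (1e-09). Over the whole course Npc2, a lysosomal sterol carrier, rose by 1.33 ± 0.12 (1.1e-05), and Mttp, the transfer protein that loads lipids onto CD1d, by 2.22 ± 0.24 (1.3e-05). They were the 2 of the 6 called up, and 1 was called down, Psap (log2 fold change -1.39, adjusted p = 0.00018, glmTreat). Of all genes 26.6% were up and 23.4% down between these ends.

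As a description of how alike the courses were, Pearson's r of log2 CPM (counts scaled to library size) was taken over the 12 libraries, which share stages and replicates and so are not independent. Among the 8 genes Fcer2a and Notch2 were closest, with r = 0.97, followed by Cr2 with Cd55 and Dtx1 with Cd55 at 0.86. Cd1d1 and Rbpj were the most unlike, with r = -0.55. Among the tested genes whose log2 CPM averaged 3 or more, the closest to Fcer2a was Neurl3 (r = 0.996), to Notch2 Setd2 and Gpatch8 (both 0.991), to Cr2 Ube2d1 (0.972), to Cd55 H3f3c (0.986), to Cd1d1 Etnk1 and Ctdsp2 (both 0.976), to Dtx1 Stap1 (0.962), to Rbpj Gpr132 (0.977) and to Hes1 Casp6 (0.979). The second closest to Hes1 was Txnip (r = 0.961), which measured 196 and 202 RPKM in naive cells and 14 to 24.8 RPKM in the other libraries. The third was Ngp, a neutrophil granule gene (r = 0.960), which measured 63.2 and 24.8 RPKM in naive cells and was at or near 0 in the other libraries.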

How the data were processed

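Polyadenylated RNA of 12 libraries was prepared with TruSeq and sequenced on a NextSeq 500 in pairs, per the study's methods and the labels. The authors aligned reads to mm10 with Rsubread and deposited the counts that featureCounts gave on its inbuilt Entrez annotation, unnormalized, with exon lengths. CASAVA 1.8.2 stands in the submitters' processing notes. The 12 single-sample files equal the series table. Of its IDs 25275 matched the RefSeq gene table, whose coordinates are given. Genes without a match, of the X and Y chromosomes, mitochondria, ribosomal RNA and variable immunoglobulin segments were removed, leaving 23700, and filterByExpr kept 12750.

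R 4.3.3 with edgeR 4.0.16 (TMM, robust quasi-likelihood, glmTreat at 1.5-fold, Benjamini-Hochberg at 0.05) was fitted on the 6 stages as a one-way layout. RPKM were computed from the counts, lengths and TMM-scaled sizes. SE is the log2 fold change over the square root of F. Alternatives used DESeq2 1.42.0 among others. On simulated counts for expanded cells against plasmablasts (12548 genes), 56% of 2-fold and 98% of 3-fold changes were recovered. Likeness was Pearson's r on log2 CPM with a prior count of 2, naming the closest of the 3 computed per gene, with ties, and all 3 for Hes1. Lists name at most 4 genes each, those of lowest p in any comparison, plus members needed to state a count. The genes and lists were chosen with earlier results of these data known. Results for some genes of the lists are not reported here.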

Additional observations from a re-analysis of the deposited data

How the results depend on the processing

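Each of the 48 member comparisons was repeated under 11 other settings and with each of the 12 libraries left out, 1104 results in all, of which 1042 kept direction and call, 22 lost the call, 19 gained it and 21 changed sign, the latter all among changes that were not called. The cause of each shift was not tested. Scaling by total counts alone, without TMM, moved the median of all tested genes by -0.21 (naive to 3 h), 0.33 (3 h to 10 h), -0.34 (expanded to plasmablast) and -0.28 (naive to plasmablast) on the log2 scale. All genes called up and down then numbered 2091 and 3716, 3432 and 1004, 1181 and 2953, and 2730 and 3884, against 2674 and 3100, 2221 and 1711, 1776 and 1553, and 3386 and 2985 with TMM.

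The 5 members called from 3 h to 10 h became 3 under library size alone and 3 with only the 4 libraries compared. Under library size alone glmTreat also called Dtx1 and Rbpj down from naive to plasmablast (adjusted p = 0.012 and 0.0076). It called Rbpj down from expanded to plasmablast as well (0.0057), and no longer called its rise from naive to 3 h (0.63). With only the 4 libraries compared, Dtx1 was also called down from naive to plasmablast (log2 fold change -0.70, adjusted p = 0.019, glmTreat). The 1 called from 10 h to 33 h became 2 under library size alone, 2 without a filter and 4 by the F-test, and the 2 called from 33 h to expanded became 5 by the F-test. Leaving out a library gave 3 to 5 members from 3 h to 10 h (3 without either 10 h library) and 1 to 2 from 10 h to 33 h (2 without 33 h replicate 1).

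Signs changed as follows. Under library size alone, Fcer2a from naive to 3 h was -0.15, Hes1 from 3 h to 10 h 0.07, Cd1d1 from naive to plasmablast -0.25, and, from expanded to plasmablast, Dtx1 -0.22, Hes1 -0.29 and Cd55 -0.28. Cd1d1 from 3 h to 10 h was -0.02 with DESeq2 size factors and -0.04 with its Wald test, and from naive to plasmablast -0.01 both without a filter and with only 4 libraries. Fcer2a from naive to 3 h was -0.01 with at least 10 counts required. When a library was left out, the changes that crossed 0 ranged, over the 12 omissions, from -0.06 to 0.15 for Fcer2a and from -0.68 to 0.16 for Notch2 (naive to 3 h), from -0.41 to 0.59 for Cd1d1 (3 h to 10 h), from -0.42 to 0.11 for Hes1 (10 h to 33 h), from -0.23 to 0.03 for Dtx1 and from -0.01 to 0.33 for Cd1d1 (33 h to expanded), from -0.06 to 0.15 for Hes1 (expanded to plasmablast) and from -0.06 to 0.12 for Cd1d1 (naive to plasmablast). The lowest of Fcer2a and Cd1d1 (3 h to 10 h) and the highest of Notch2 came without 3 h replicate 2.

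Replicate numbers are shared across stages but nothing states that they pair the samples. Deviations of same-numbered libraries correlated at -0.14 to 0.08, and with the replicate block 5, 5, 1, 2, 4 and 5 members were called in the 6 comparisons, as without it. Changes near 1.5-fold lie at the threshold that glmTreat sets, and the F-test called smaller ones.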
